A study of Mus musculus with 12 samples.

Results

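Levels of 10 genes picked for their pattern between tumours were followed through 12 RNA-seq libraries of sorted tumour-associated macrophages. They are the progenitor and endothelial sialomucin Cd34, the matrix genes Dcn, Htra1, Sparc, Col1a1, Col1a2 and Col3a1, the homeobox gene Rhox5, and the interferon-inducible genes Ly6a and AW112010. Cd34, Dcn, Htra1, Rhox5, Ly6a and AW112010 were chosen by their FPKM in these data, far higher in the MC38 libraries, and the collagen genes and Sparc because they are matrix genes beside them. The 10 symbols were all found among the 24346 in the files, each once. A filter of at least 1 FPKM in at least 3 libraries kept 11808 genes, and 8 of the 10 passed it. FPKM relates fragments to the length of a transcript and the size of a library, so levels can be set side by side between genes.

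The cells came from Arg1-RFP mice, which carry a red fluorescent reporter for the arginase gene Arg1. They were sorted as CD45+, MHCII+, F4/80+, CD11b+ cells that lacked B220, CD90.2, NK1.1, Ly6G and Ly6C. The mice bore either MC38 tumours, grown from a mouse colon carcinoma line, or B16F10 tumours, grown from a mouse melanoma line. Each tumour gave an RFP+ and an RFP- gate, so the 4 groups were MC38 RFP+, MC38 RFP-, B16F10 RFP+ and B16F10 RFP-, with 3 libraries each. No group is a tumour-free or reporter-free control. Titles number the MC38 libraries 1, 2 and 3 and the B16F10 libraries 12, 11 and 3 in both gates. The labels give no age, sex or time after implantation, and they tie no library to an animal. Titles of the MC38 and B16F10 libraries are also spelled in different styles, so whatever else was done apart for the tumours cannot be told apart from tumour type.

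The macrophage identity of the sort was checked with 16 defining macrophage genes, all detected. Their summed level was 43806 to 54300 FPKM in MC38 libraries and 8372 to 19243 FPKM in B16F10 libraries. The 10 melanocytic pigment genes summed to 11.7 to 23.4 FPKM in MC38 libraries and 8257 to 10807 FPKM in B16F10 libraries. Arg1 itself was at 394 to 553 FPKM in RFP+ and 40.6 to 58.5 FPKM in RFP- libraries of MC38, and at 615 to 916 FPKM in RFP+ and 56.2 to 125 FPKM in RFP- libraries of B16F10. Total FPKM per library ran between 614875 and 815591, with 10445 to 11103 genes at 1 FPKM or more. The steps between low values show relative depth. A single read was worth 1 to 1.21 times the value in the deepest library among MC38 libraries, and 2.97 to 3.56 times among B16F10 libraries. The low levels of B16F10 libraries are therefore the less precise ones.

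Fibrillar collagens are secreted as procollagen chains that assemble in triple helices. Type I collagen is built of Col1a1 and Col1a2 chains and type III collagen of Col3a1 chains. Decorin, the product of Dcn, is a small proteoglycan that coats collagen fibrils and binds TGF-beta. Sparc encodes a secreted collagen-binding glycoprotein and Htra1 a secreted serine protease that cleaves matrix proteins. In tumours these genes are best known from fibroblasts, while Sparc is also abundant in melanoma cells. Rhox5 is an X-linked homeobox gene of reproductive tissues that is also transcribed in mouse tumour cell lines. Ly6a encodes Sca-1, a surface marker of haematopoietic progenitors that interferons induce in many cells, and AW112010 is annotated as a long non-coding RNA and is induced in inflamed macrophages.

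The promoters of 7 of the 10 genes were matched by symbol in the RefSeq table for GRCm38.p6, as windows of 300 bases that run from 250 bases before to 50 bases after the gene's start. Base 251 of a window is the start. Shown in full are Col3a1 and Col1a2, a collagen gene read in MC38 libraries beside one near 0 there. Rhox5 and AW112010 follow, the homeobox gene and the most abundant of the 10 in MC38 libraries. Capitals mark motif matches on either strand. The motifs searched were the interferon-response core GAAANNGAA, the STAT core TTCNNNGAA, CCAAT and TATAAA.
Col3a1: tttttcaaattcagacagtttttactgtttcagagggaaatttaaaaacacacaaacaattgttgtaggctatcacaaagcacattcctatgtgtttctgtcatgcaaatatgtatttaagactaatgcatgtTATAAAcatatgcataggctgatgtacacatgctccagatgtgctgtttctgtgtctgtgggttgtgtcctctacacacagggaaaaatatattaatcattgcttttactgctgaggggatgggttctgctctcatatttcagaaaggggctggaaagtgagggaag
Col1a2: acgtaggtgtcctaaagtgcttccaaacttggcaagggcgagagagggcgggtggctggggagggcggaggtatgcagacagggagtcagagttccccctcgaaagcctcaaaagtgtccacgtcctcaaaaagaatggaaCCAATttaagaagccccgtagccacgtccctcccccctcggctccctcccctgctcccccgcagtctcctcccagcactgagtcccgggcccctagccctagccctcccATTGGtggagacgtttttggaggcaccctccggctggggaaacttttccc
Rhox5: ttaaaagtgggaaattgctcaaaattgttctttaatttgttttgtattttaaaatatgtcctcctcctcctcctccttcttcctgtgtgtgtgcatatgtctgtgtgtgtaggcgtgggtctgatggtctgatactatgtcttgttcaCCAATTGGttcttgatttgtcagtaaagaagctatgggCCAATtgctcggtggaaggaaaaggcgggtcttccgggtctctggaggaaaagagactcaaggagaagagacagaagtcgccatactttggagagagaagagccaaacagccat
AW112010: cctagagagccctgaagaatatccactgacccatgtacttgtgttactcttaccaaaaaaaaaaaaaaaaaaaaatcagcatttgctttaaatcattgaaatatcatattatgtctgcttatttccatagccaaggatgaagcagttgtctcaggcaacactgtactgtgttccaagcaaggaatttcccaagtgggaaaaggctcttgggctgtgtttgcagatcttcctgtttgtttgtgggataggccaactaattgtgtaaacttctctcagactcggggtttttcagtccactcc

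The windows lie at chr1:45311288-45311587 on the plus strand for Col3a1, chr6:4505368-4505667 on the plus strand for Col1a2, chrX:37754358-37754657 on the plus strand for Rhox5 and chr19:11050517-11050816 on the minus strand for AW112010. Col3a1 held 1 TATAAA, at bases 134 to 139 of its window, and TATAAA occurred in 13.6% of 32851 RefSeq promoter windows. Col1a2 held 2 CCAAT matches and Rhox5 held 3, of which 2 overlap in opposite orientation. CCAAT occurred in 37.4% of all windows. Htra1 held 1 GAAANNGAA and 1 CCAAT, while Cd34, Sparc and AW112010 held none of the 4 motifs. GAAANNGAA occurred in 8.56% and TTCNNNGAA in 8.30% of all windows. Both collagen windows differed in base composition, with 37.7% G and C and 0 CpG in Col3a1 and 61.0% G and C and 13 CpG in Col1a2, against a median of 52.7% and 7 CpG over all windows. These matches describe the letters in the windows only.

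Cd34 was at 70.0, 51.6 and 51.3 FPKM in MC38 RFP+ libraries and 71.6, 44.0 and 50.7 FPKM in MC38 RFP- libraries, against 0.248, 0 and 0.585 FPKM in B16F10 RFP+ and 0, 0.304 and 0.483 FPKM in B16F10 RFP- libraries. Dcn was at 36.0, 42.2 and 35.9 FPKM in MC38 RFP+ and 35.5, 36.9 and 30.2 FPKM in MC38 RFP- libraries, against 0.133, 0 and 0 FPKM in B16F10 RFP+ and 0, 0.387 and 0.137 FPKM in B16F10 RFP- libraries. All 6 MC38 libraries lay far above all 6 B16F10 libraries, whichever the gate. Cd34 lies on chromosome 1 at 194938821 to 194961292 and Dcn on chromosome 10 at 97479500 to 97518163 in GRCm38.p6, so they are not neighbours.

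Htra1 was at 53.9, 48.9 and 36.3 FPKM in MC38 RFP+ and 52.8, 31.8 and 29.9 FPKM in MC38 RFP- libraries, against 1.96, 0.215 and 0.218 FPKM in B16F10 RFP+ and 1.10, 0 and 0.099 FPKM in B16F10 RFP- libraries. Rhox5 was at 32.8, 24.3 and 24.2 FPKM in MC38 RFP+ and 38.6, 20.4 and 22.3 FPKM in MC38 RFP- libraries, against 0.236, 0 and 0 FPKM in B16F10 RFP+ and 0, 0.364 and 0 FPKM in B16F10 RFP- libraries. Neither gene overlapped between tumours. The 30 other genes of the Rhox cluster on the list stayed below 1 FPKM in every library. Their summed level was 0.062 to 0.517 FPKM in MC38 libraries and 0 to 0.433 FPKM in B16F10 libraries. Of these 30, 23 were listed at 0 in all MC38 libraries and 28 in all B16F10 libraries.

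Ly6a and AW112010 were the most abundant of the 10 genes in MC38 libraries and were present in both tumours. Ly6a was at 1076, 1163 and 1577 FPKM in MC38 RFP+ and 1191, 1259 and 1572 FPKM in MC38 RFP- libraries, against 47.1, 50.3 and 73.7 FPKM in B16F10 RFP+ and 98.0, 63.8 and 74.4 FPKM in B16F10 RFP- libraries. AW112010 was at 2010, 2015 and 1642 FPKM in MC38 RFP+ and 2409, 2205 and 1861 FPKM in MC38 RFP- libraries, against 90.6, 50.7 and 69.7 FPKM in B16F10 RFP+ and 137, 81.1 and 77.0 FPKM in B16F10 RFP- libraries. The tumours were again fully apart. These B16F10 levels are well above those of Cd34, Dcn, Rhox5 and Col3a1, so the differences of Ly6a and AW112010 rest on values measured in both tumours.

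The collagen genes split. Col3a1 was at 21.9, 12.7 and 26.3 FPKM in MC38 RFP+ and 18.4, 9.96 and 27.8 FPKM in MC38 RFP- libraries, against 0, 0.007 and 0 FPKM in B16F10 RFP+ and 0.016, 0 and 0.224 FPKM in B16F10 RFP- libraries. Col1a1 was at most 0.162 FPKM in MC38 libraries and 0.103 FPKM in B16F10 libraries. Col1a2 was at most 0.018 FPKM in MC38 libraries and 0.436 FPKM in B16F10 libraries. Neither chain of type I collagen reached 1 FPKM in any library, the tumours overlapped for both, and both failed the filter. The name stromal and tumour-type genes high in MC38 therefore does not hold for Col1a1 and Col1a2.

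It does not hold for Sparc either. Sparc was at 39.7, 32.8 and 32.0 FPKM in MC38 RFP+ and 35.9, 24.7 and 27.9 FPKM in MC38 RFP- libraries, against 126, 180 and 94.1 FPKM in B16F10 RFP+ and 124, 162 and 86.2 FPKM in B16F10 RFP- libraries. Every B16F10 library lay above every MC38 library. In B16F10 libraries Sparc was 0.039 to 0.062 times the level of the pigment gene Tyrp1. In MC38 libraries, where Tyrp1 averaged 2.15 FPKM, the same ratio was 9.93 to 26.6. In bulk RNA, fewer cells of a type and less RNA per cell cannot be told apart, and the part of other cells in these levels was not tested.

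**Figure D1:**
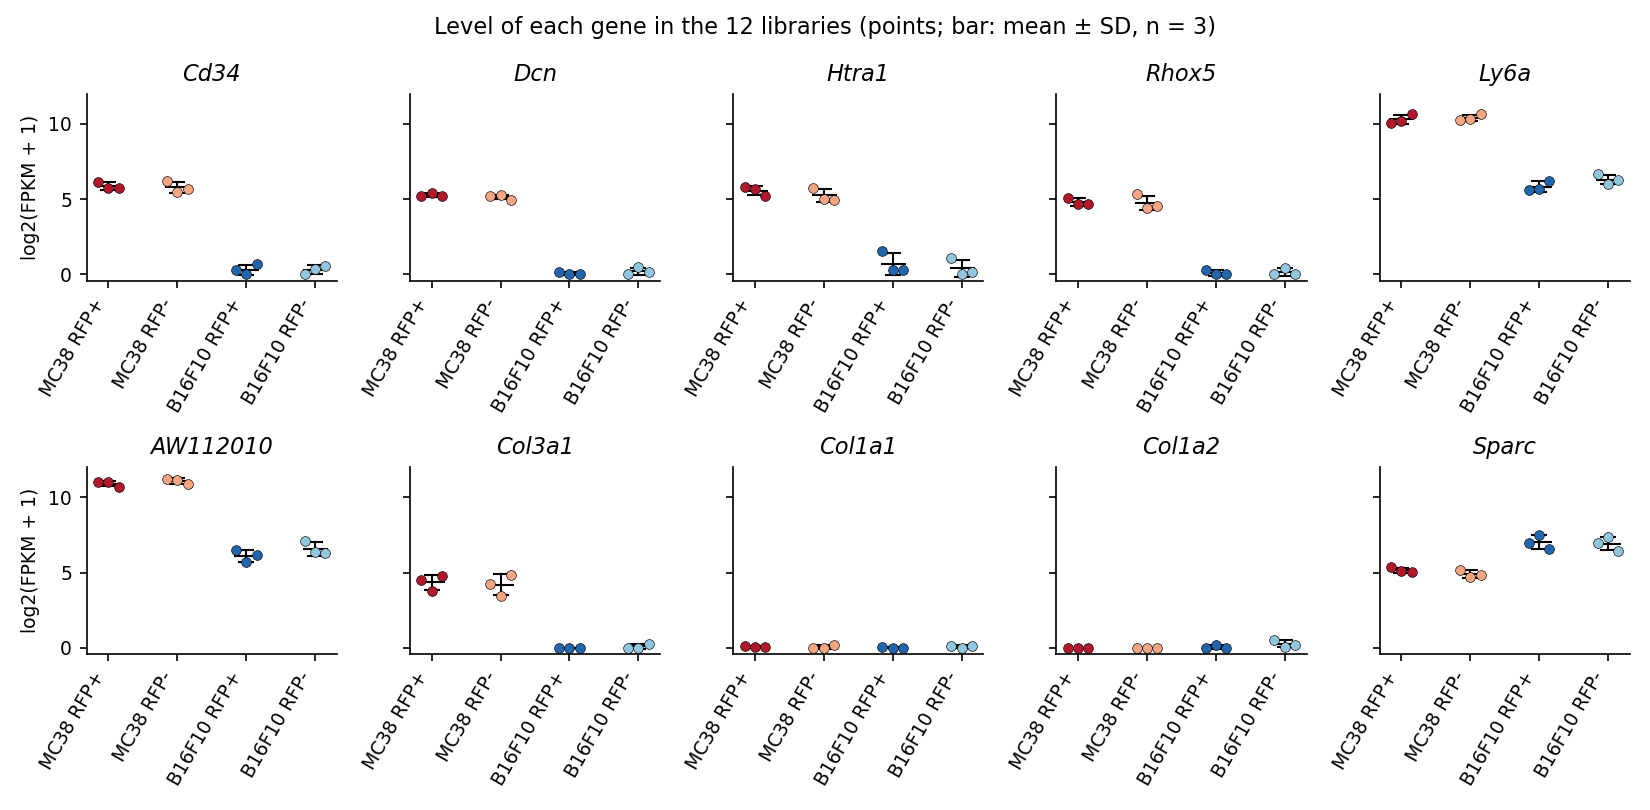
Level of each of the 10 genes, as log2(FPKM + 1) on the vertical axis, in the 3 libraries of each group (points), with the mean and SD as bars. The panels of Cd34, Dcn, Htra1, Rhox5, Ly6a, AW112010 and Col3a1 show MC38 libraries far above B16F10 libraries, Col1a1 and Col1a2 lie near 0 in all 12, and Sparc lies higher in B16F10.

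Over both gates, the difference of MC38 minus B16F10 on the log2(FPKM + 1) scale was 5.50 for Cd34, 5.07 for Dcn, 4.84 for Htra1, 4.65 for Rhox5, 4.62 for AW112010, 4.27 for Ly6a, 4.22 for Col3a1 and -1.94 for Sparc. This contrast chose the genes, so the differences are a description and carry no test. The added 1 understates them for genes near 0 in B16F10. For 7 of the 10 genes all MC38 libraries lay above all B16F10 libraries, a pattern found in 17.5% of the 11808 genes kept. For Sparc all lay below, as for 31.9% of genes kept. Between the tumours, 69.4% of all genes kept passed limma at an adjusted p under 0.05, with 2998 genes higher and 5200 lower.

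The size of a tumour difference depended on the scaling. The median over all genes kept was -0.23 as deposited, -0.05 after quantile and -0.08 after upper-quartile scaling. The share of higher genes among those called was 36.6%, 46.9% and 44.7% under these scalings. When libraries were instead set to a common level of the macrophage core genes, the median of all genes was -2.26 and 2.17% of the called genes were higher. On that scale the differences were 3.47 for Cd34, 3.04 for Dcn, 2.81 for Htra1, 2.62 for Rhox5, 2.59 for AW112010, 2.24 for Ly6a, 2.19 for Col3a1 and -3.97 for Sparc. The 8 genes kept their direction. As this scaling lowers the difference of every gene by the same amount, that is arithmetic and no test of direction.

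The reporter gates were an independent comparison, since the choice of genes did not use them. Within MC38, 0 of the 8 genes passed limma at an adjusted p under 0.05, beside 0.0254% of all genes kept, and 0 had an unadjusted p under 0.05. The RFP+ minus RFP- differences ran from -0.19 for AW112010 to 0.30 for Htra1. The lowest adjusted p was 1. With the title number as a block, again 0 of 8 were called, beside 0.44% of all genes, and the lowest adjusted p was 0.828, for Sparc. Precision limits this: the SE of the difference was 0.18 for Dcn and 0.37 for Htra1.

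Within B16F10, 0 of 8 genes passed limma, beside 0.178% of all genes, and 1 had an unadjusted p under 0.05. That gene was Ly6a, at -0.46 ± 0.21 (log2 difference ± SE, unadjusted p = 0.047 and adjusted p = 0.497 by limma). AW112010 was at -0.47 ± 0.23, with an adjusted p of 0.502 by limma. The estimate for AW112010 was unsteady, at -0.07 with array weights, -0.20 without the RFP- library of number 12 and -0.67 without the RFP+ library of number 12. With the block, 0 of 8 were called, beside 1.36% of all genes, with adjusted p = 0.213 for Ly6a and 0.120 for AW112010 by limma. These 2 genes had an unadjusted p under 0.05 in that fit. The share of all genes at that level was not taken, so the unadjusted counts are not read as a result. Cd34, Dcn, Rhox5 and Col3a1 lay near 0 FPKM in both B16F10 gates and Htra1 at 0 to 1.96 FPKM. These 5 genes passed the filter through MC38 alone, so a gate difference could hardly be detected for them at this depth. The fit within B16F10 speaks mainly of Ly6a, AW112010 and Sparc.

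Averaged over both tumours, 0 of 8 were called without the block, beside 0.449% of all genes, and 0 with it, beside 1.92%. Here 0 genes had an unadjusted p under 0.05 without the block and 3 with it, where the lowest adjusted p was 0.116 by limma. These unadjusted counts too have no share of all genes beside them. The gate difference itself was compared between tumours, and 0 of 8 were called, beside 0% of all genes without the block and 0.0339% with it. At an unadjusted p under 0.05 this gave 0 genes in both fits, and the 8 estimates ran from -0.0042 to 0.38. Htra1 and Sparc were higher and AW112010 lower in the RFP+ library of all 6 same-numbered pairs, and Dcn was higher in 3 of 3 MC38 pairs and 1 of 3 B16F10 pairs. Htra1 passed the filter through MC38 alone, and its B16F10 pairs lay at 0 to 1.96 FPKM, where values are poorly resolved. The share of all genes with such agreement was not taken, so these directions are not read as a result. None of these genes passed the test.

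**Figure D2:**
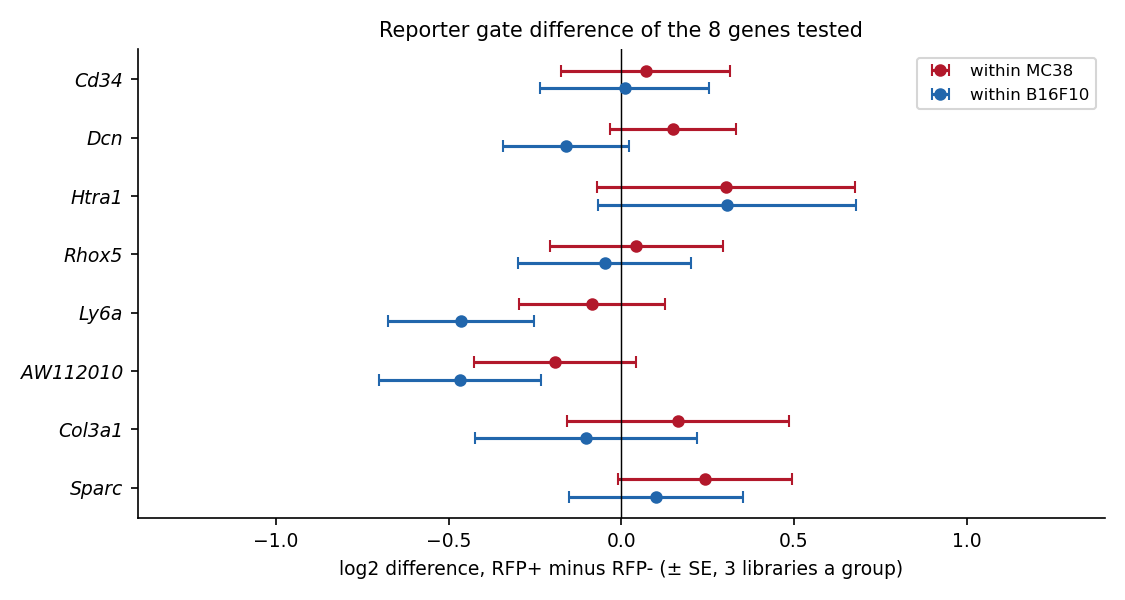
RFP+ minus RFP- difference on the log2(FPKM + 1) scale (horizontal axis) for the 8 genes tested, within MC38 (red) and within B16F10 (blue), with the SE as bars. The estimates lie between -0.47 and 0.31, and none passed the test.

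Within MC38, the genes did not follow one order over the title numbers. Cd34, Rhox5, Htra1 and Sparc were highest in number 1 in both gates, Col3a1 and Ly6a in number 3. Col3a1 averaged 27.0 FPKM in number 3 and 11.3 FPKM in number 2, a ratio of 2.38 and the widest of the 8 genes, with the order of the numbers alike in both gates. The ratio of the highest to the lowest number was 1.61 for Htra1, 1.60 for Rhox5, 1.48 for Cd34, 1.39 for Ly6a, 1.31 for Sparc, 1.26 for AW112010 and 1.20 for Dcn. Cd34 and Rhox5 moved nearly in step, with Cd34 at 1.86 to 2.27 times Rhox5 in the 6 MC38 libraries. Col3a1 did not follow Dcn, being 0.270 to 0.918 times its level.

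A test of the title number, chosen after these values were seen, called 0 of 8 genes within MC38, beside 0.898% of all genes. Col3a1 came nearest, with an unadjusted p of 0.00103 and an adjusted p of 0.0819 by limma's F test. It was called without the RFP+ or the RFP- library of B16F10 number 12 (adjusted p = 0.0384 by limma each). Htra1, Rhox5 and Sparc also had an unadjusted p under 0.05, but adjusted p = 0.476, 0.539 and 0.476 by limma's F test. The type I interferon response list moved with number 3: its mean log2(FPKM + 1) was 6.57 and 6.58 in the RFP+ and RFP- libraries of number 3, and 5.55 to 5.68 in the other MC38 libraries. Ly6a was highest and AW112010 lowest in those libraries. AW112010 stood at 1.04 and 1.18 times Ly6a in number 3 and at 1.73 to 2.02 times in numbers 1 and 2. The part of the interferon genes in this was not tested.

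**Figure D3:**
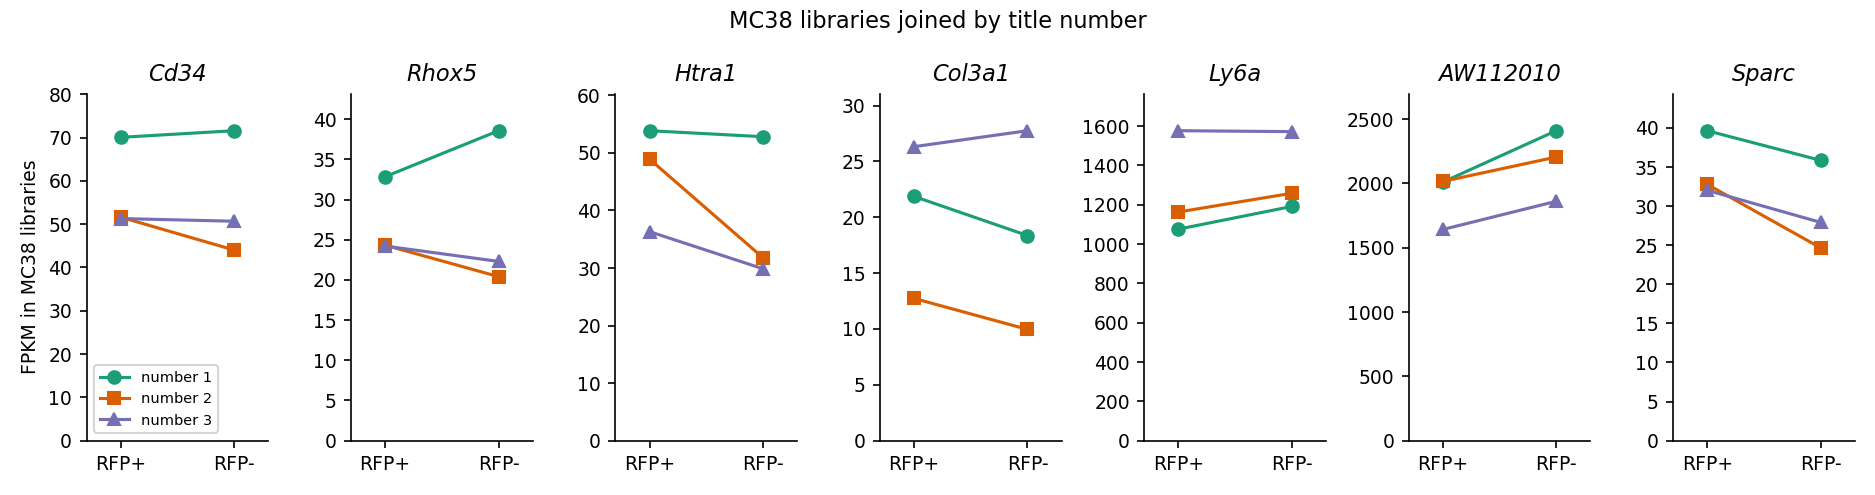
FPKM (vertical axis, from 0) of 7 of the genes in the MC38 libraries, with RFP+ left and RFP- right and a line joining libraries of the same title number. Col3a1 and Ly6a are highest in number 3 in both gates, whereas Cd34, Rhox5, Htra1 and Sparc are highest in number 1.

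Within B16F10, the same test called 3 of 8 genes, beside 5.83% of all genes. Cd34, Dcn, Htra1, Rhox5 and Col3a1 passed the filter through MC38 alone and lay near or below 1 FPKM in most B16F10 libraries, so the test speaks mainly of Ly6a, AW112010 and Sparc. Sparc was called with adjusted p = 0.00985 by limma's F test. It was highest in number 11 in both gates, at a mean of 171 FPKM, and lowest in number 3, at 90.1 FPKM. AW112010 (adjusted p = 0.0279 by limma) averaged 114 FPKM in number 12 and 65.9 FPKM in its lowest number. Htra1 (adjusted p = 0.0174 by limma) was among the 3, but on levels of 0 to 1.96 FPKM, with both number 12 libraries highest. The macrophage core sum was 9778 and 8372 FPKM in the RFP+ and RFP- libraries of number 11, and 14514 to 19243 FPKM in the other B16F10 libraries. The melanocytic sum was 10807 and 10799 FPKM in number 11 and 8257 to 9669 FPKM in the others. Neutrophil markers summed to 366 and 841 FPKM in number 3 and to 32.9 to 126 FPKM in the others. The part of these cells in the levels was not tested. With libraries set to the macrophage core level, AW112010 was no longer called (adjusted p = 0.0725 by limma). With no filter on low values, Sparc alone was called. Leaving out the RFP- library of number 11 left 0 of 8 called, and leaving out the MC38 RFP+ library of number 3 left 1. Sparc also lost its call without either B16F10 library of number 3, and AW112010 lost it in 9 of the 12 fits that left out a library.

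The matrix genes outside the 10 were taken from lists of collagen chains, other matrix proteins, processing enzymes and receptors. Of 15 other collagen chains, 11 passed the filter, and 7 were higher and 3 lower in MC38 than in B16F10 (limma, adjusted p under 0.05). With libraries set to the macrophage core level 3 were higher and 7 lower. Their median difference was 1.42 as deposited, beside -0.23 for all genes. Col6a1, a chain of the beaded-filament type VI collagen, was at 17.9 ± 3.99 FPKM in MC38 and 0.0032 ± 0.0049 FPKM in B16F10 (SD, n = 6 each), a difference of 4.21. Its partner chains Col6a2 and Col6a3 differed by 2.58 and 2.23, and Col14a1, a fibril-associated chain, by 3.26. The basement membrane chain Col4a1 went the other way, at -0.50 ± 0.17, and Col16a1 and Col18a1 were also lower. Of the 11 chains, 6 reached 1 FPKM in 3 or more libraries of MC38 alone, Col6a1, Col6a2, Col6a3 and Col14a1 among them, and 1 of B16F10 alone. Such genes had to differ, so their calls support nothing and only their values are given. Over all lists this holds for 27 genes through MC38 and 24 through B16F10 of 174 tested.

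Of 20 matrix glycoproteins and proteoglycans 8 passed the filter, with 4 higher and 3 lower in MC38, and 3 higher and 5 lower on the macrophage core scale. Of the 8, 3 passed through MC38 alone and 2 through B16F10 alone. Tgfbi, a TGF-beta-induced adhesion protein, was at 838 ± 119 FPKM in MC38 and 133 ± 39.8 FPKM in B16F10 (SD, n = 6 each), a difference of 2.68 ± 0.14 (SE). Fibulin-1 (Fbln1) was lower, at 1.19 ± 0.488 FPKM in MC38 and 29.2 ± 7.74 FPKM in B16F10. The proteoglycan genes nearest to Dcn gave little signal: Lum was at most 0.792 FPKM in MC38 and 2.37 FPKM in B16F10, and biglycan (Bgn) at most 0.510 FPKM in MC38 and 0.150 FPKM in B16F10.

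Of 18 collagen processing enzymes and chaperones 14 passed the filter, with 3 higher and 10 lower in MC38. On the macrophage core scale 0 were higher and 14 lower. With the title number as a block 2 were higher, as Plod3 lost its call (adjusted p = 0.0648 by limma). Pcolce, the enhancer of procollagen C-proteinase, was at 12.02 ± 2.97 FPKM in MC38 and 95.8 ± 34.6 FPKM in B16F10 (SD, n = 6 each), a difference of -2.87 ± 0.21 (SE). The collagen chaperone gene Serpinh1 differed by -2.46 ± 0.18 and the lysyl hydroxylase gene Plod2 by -2.32 ± 0.15. Of 6 collagen and SPARC receptors tested, 2 were higher and 3 lower in MC38, and 1 was higher and 5 lower on the macrophage core scale. Itga1 among them passed the filter through B16F10 alone. Lair1, an inhibitory collagen receptor of leukocytes, was at 204 ± 21.3 FPKM in MC38 and 26.1 ± 7.26 FPKM in B16F10, a difference of 2.96 ± 0.18. The discoidin receptor gene Ddr2 differed by -0.73 and the integrin gene Itgb1 by 0.33, which turned to -1.70 on the macrophage core scale.

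Among 13 genes of TGF-beta ligands, receptors and latency proteins tested, 9 were higher and 3 lower in MC38, against 2 higher and 10 lower on the macrophage core scale. Of the 13, 3 passed the filter through MC38 alone, Ltbp1 among them, and 2 through B16F10 alone. Ltbp1, which tethers latent TGF-beta to matrix, was at 10.1 ± 2.53 FPKM in MC38 and 0.040 ± 0.050 FPKM in B16F10 (SD, n = 6 each). The receptor gene Tgfbr1 was higher by 2.61 ± 0.17 and the ligand gene Tgfb3 by 2.33 ± 0.13. Among relatives of Htra1, Htra4, which passed the filter through MC38 alone, differed by 2.95, and Htra3 was higher by 1.97 ± 0.18, which was -0.06 on the macrophage core scale, while the mitochondrial Htra2 was lower, at -1.39 ± 0.19. The relative of Sparc, Sparcl1, was at 0.325 ± 0.216 FPKM in MC38 and 94.2 ± 30.3 FPKM in B16F10 (SD, n = 6 each), a difference of -6.12. Both SPARC family genes kept passed the filter through B16F10 alone. Relatives of Cd34, Podxl and Podxl2, summed to at most 0.015 FPKM in MC38 and 0.760 FPKM in B16F10 libraries, and neither passed the filter.

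All 26 genes of the interferon gamma response were higher in MC38 than in B16F10, with a median difference of 2.59, and 15 were higher and 1 lower on the macrophage core scale. Gbp5, Ido1 and Ubd among them passed the filter through MC38 alone, so their calls support nothing. The GTPase genes Iigp1, Gbp4 and Gbp2 differed by 3.59 ± 0.15, 3.58 ± 0.21 and 3.41 ± 0.15. All 23 genes of the type I interferon response were higher, with a median of 2.52, and 10 were higher and 0 lower on the macrophage core scale. The regulator gene Irf7 was at 427 ± 186 FPKM in MC38 and 24.2 ± 6.11 FPKM in B16F10 (SD, n = 6 each), a difference of 4.02 ± 0.24 (SE). Oasl2 differed by 3.18 and Ifi44 by 3.92. Ifi44 and Mx2 passed the filter through MC38 alone, so their calls support nothing. Of 15 other Ly6 family genes 5 passed the filter, with 4 higher and 1 lower in MC38, and 2 higher and 1 lower on the macrophage core scale. Of these 5, Ly6c1 and Ly6d each passed through 1 tumour alone. Ly6e, a widely expressed relative of Ly6a, was at 1262 ± 234 FPKM in MC38 and 187 ± 69.4 FPKM in B16F10. The macrophage core list was itself higher, with 16 of 16 genes called and a median of 2.05. With the title number as a block 15 were called, as Cd68 lost its call (adjusted p = 0.0579 by limma), and on the core scale the interferon gamma and type I medians were 0.56 and 0.49.

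**Figure D4:**
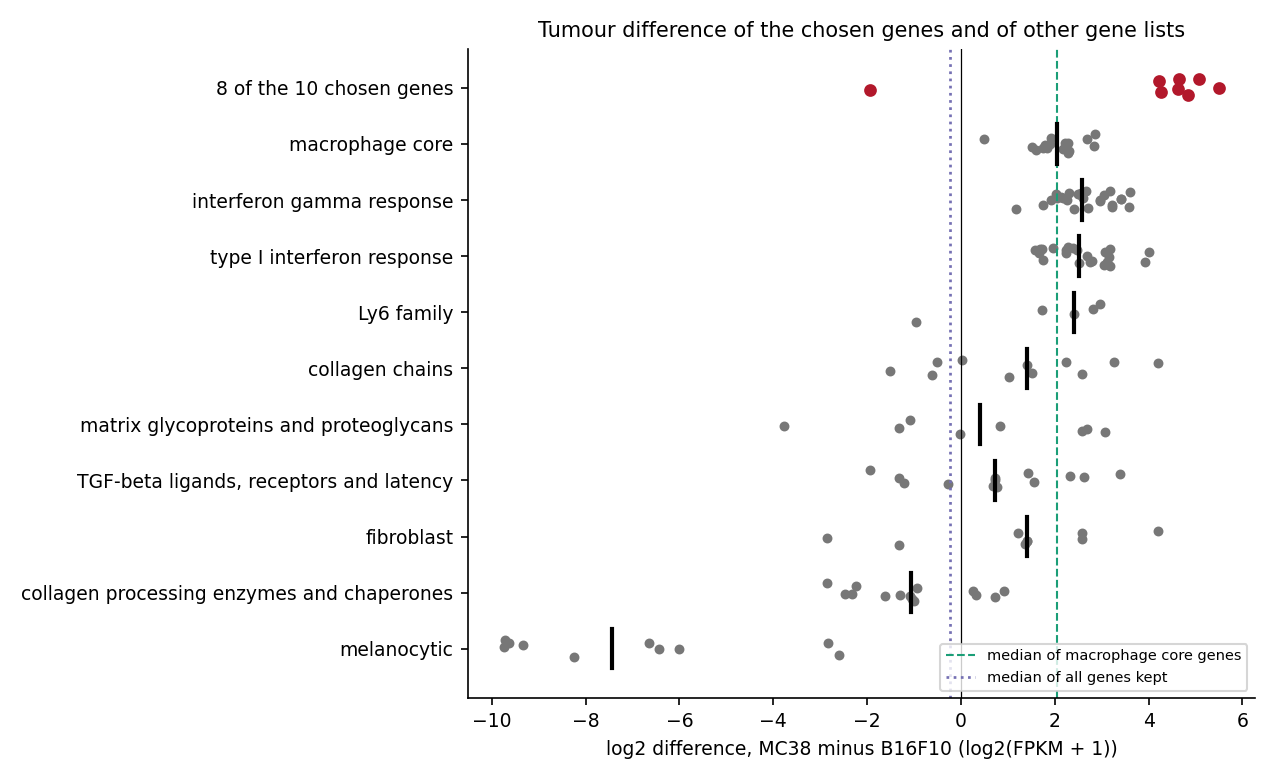
Difference of MC38 minus B16F10 on the log2(FPKM + 1) scale (horizontal axis) for 8 of the 10 genes (red) and for genes of 10 lists (grey points, black bar for the list median), with dashed and dotted lines at the medians of the macrophage core and of all genes kept. The 7 genes high in MC38, which were picked for or beside that pattern, lie at 4.22 to 5.50, and Sparc lies at -1.94.

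Levels of other cell types were read from marker lists. Of 16 fibroblast markers 9 passed the filter, with 7 higher and 2 lower in MC38, and 3 higher and 6 lower on the macrophage core scale. The sum of the list was 73.2 to 108 FPKM in MC38 and 85.3 to 198 FPKM in B16F10 libraries. Most of the B16F10 sum was Pcolce, whose levels are given above with the processing enzymes. The sum therefore says little of the other markers there. Of the 9, 5 passed through MC38 alone and 1 through B16F10 alone. In MC38, 10 of the 16 markers reached 1 FPKM in at least 1 library, and 4 did in B16F10. The anti-angiogenic serpin gene Serpinf1 was at 28.8 to 41.7 FPKM in MC38 and 8.76 to 28.4 FPKM in B16F10, and the gelatinase gene Mmp2 at 5.46 to 9.11 FPKM in MC38 and 1.39 to 3.17 FPKM in B16F10. The mesenchymal regulators Prrx1 and Twist1 were at 0.695 to 1.04 and 0.299 to 1.14 FPKM in MC38, and at most 0.023 FPKM and listed at 0 in B16F10. Fap, the fibroblast activation protein gene, was listed at 0 in all 6 MC38 libraries, Thy1 was at most 0.016 FPKM, Dpt at most 0.127 FPKM and Pdgfrb at most 0.265 FPKM in MC38. Pdgfra averaged 1.77 ± 0.799 FPKM in MC38 and 0.0019 ± 0.0047 FPKM in B16F10 (SD, n = 6 each).

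Of 12 endothelial markers 4 were tested, with 2 higher and 2 lower in MC38, and 0 higher and 3 lower on the macrophage core scale. Egfl7, Kdr and Vwf among them each passed the filter through 1 tumour alone, so their calls support nothing. The list summed to 10.4 to 19.2 FPKM in MC38 and 11.5 to 20.8 FPKM in B16F10, and 3 of 12 markers reached 1 FPKM in at least 1 MC38 library. Kdr, a receptor for vascular growth factor, was at 0.939 to 2.18 FPKM in MC38 and at most 1.31 FPKM in B16F10, while Cdh5, the vascular cadherin gene, was at most 0.157 FPKM in MC38 and 0.087 FPKM in B16F10. Pecam1 was higher in MC38 by 2.41 ± 0.22 (SE), or 0.38 on the macrophage core scale, and Egfl7, which passed the filter through B16F10 alone, differed by -3.15. Of 7 haematopoietic progenitor markers besides Cd34 3 were tested, with 1 higher and 2 lower in MC38, and 0 higher and 3 lower on the macrophage core scale. Meis1 among them passed the filter through B16F10 alone. Procr differed by 0.66 ± 0.21, and Kit was at most 1.86 FPKM in MC38 and 2.59 FPKM in B16F10, a call that was lost with the title number as a block (adjusted p = 0.0699 by limma). Epithelial markers summed to 7.83 to 13.2 FPKM in MC38 and 1.57 to 5.04 FPKM in B16F10 libraries. Of 13 epithelial markers 3 were tested, with 1 higher and 1 lower in MC38. On the macrophage core scale 0 were higher and 2 lower. The 1 higher as deposited was Cdh1, by 2.46 ± 0.25, a call lost on the core scale. Vil1 passed the filter through B16F10 alone. Epcam was at most 0.528 FPKM in MC38 and Krt19 was listed at 0 in all 12 libraries. The part of any of these cells in the levels of the 10 genes was not tested.

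Of 3 pericyte and smooth muscle genes tested 1 was higher and 2 were lower, and 0 and 3 on the macrophage core scale. Of the 3, 2 passed through B16F10 alone, among them Mcam, at -4.20. All 10 melanocytic genes were lower on both scales, but 5 of the 10 passed the filter through B16F10 alone, so their calls support nothing. Dct, not among those 5, was at 1.70 ± 0.567 FPKM in MC38 and 2302 ± 439 FPKM in B16F10 (SD, n = 6 each). Over all lists, 112 genes outside the 10 were higher and 51 lower of 174 tested, against 40 higher and 90 lower on the macrophage core scale. Between the gates, 0 of 111 genes of the matrix, TGF-beta, HTRA, SPARC, Ly6 and interferon lists passed limma in either tumour. Of all genes kept, 0.0254% passed within MC38 and 0.178% within B16F10. At an unadjusted p under 0.05 by limma there was 1 list gene within MC38 and there were 19 within B16F10. The share of all genes at that level was not taken, so these counts are not read as a result. Col6a1 differed between RFP+ and RFP- by 0.04 ± 0.23 and Col14a1 by -0.18 ± 0.24 within MC38. With the title number as a block 1 of the 111 was called within MC38, beside 0.44% of all genes. It was the prolyl hydroxylase gene P4ha2 (1.07, adjusted p = 0.0106 by limma). Within B16F10 3 of the 111 were called with the block, beside 1.36% of all genes. They were Ly6e at -0.70, Serpina3g at -1.15 and the RNA sensor gene Ddx58 at 0.96.

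Genes of the most similar profile were found by centring log2(FPKM + 1) of each gene and taking the root mean square difference over the 12 libraries, so a smaller value means more alike. Col6a1 was nearest to Col3a1, at 0.21, to Rhox5, at 0.31, and to Htra1, at 0.57. Klra2 was nearest to Ly6a, at 0.20, and F11r to AW112010 and Dcn, at 0.38 and 0.52. Gbp2b was nearest to Cd34, at 0.61. Klhdc2 was nearest to Sparc, at 0.17, with a mean of 19.0 FPKM in MC38 and 71.1 FPKM in B16F10. Among the 10 genes, the closest pairs were Dcn with Rhox5, at 0.32, and Cd34 with Dcn, at 0.35. The tumour difference makes up most of each profile, and all points share the 12 libraries, so likeness here is mainly likeness in that difference.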

How the data were processed

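Each of the 12 libraries was deposited as a table of gene symbols with FPKM values, the unit per the file headers. RNA was taken with TRI Reagent and made into libraries with SMART-Seq HT and Nextera XT kits, per the labels' protocols. TopHat2 2.1.1, Bowtie2 2.2.8, SAMtools 0.1.18, Cuffdiff 2.2.1 and the mm10 build are named in the submitters' processing notes. The sources used here do not give the annotation, the strand setting or how libraries were scaled, so genes that overlap on opposite strands may share reads.

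The 10 genes and all gene lists were chosen with earlier results of these data known. Values were taken as log2(FPKM + 1), a scale that understates changes of low genes. Genes that reached 1 FPKM in 3 or more libraries were tested with limma 3.58.1 in R 4.3.3 (trended eBayes, 4 group means, 8 residual degrees of freedom). Tests were two-sided, with Benjamini-Hochberg adjustment over all 11808 genes and a threshold of 0.05. P-values measure the spread between libraries, which may be technical. With no counts, no count model was fitted.

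Same-numbered RFP+ and RFP- libraries deviated together from their group means in all 6 pairs (r 0.228 to 0.443, different numbers -0.306 to 0.0178), so fits with the title number as a block stand beside the others. Alternatives were pseudocounts of 0.1 and 5, a filter of 5 FPKM or none, quantile, upper-quartile and macrophage core scaling, array weights, the compared groups alone, and each library left out. List genes named are up to 3 per list with the largest difference among called genes whose mean reached 5 FPKM, and otherwise the 2 of highest mean. Defining markers and partner genes were named beside them after their values were seen. Python 3.11.15, numpy and pandas made the levels, and the test was checked on simulated data.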

Additional observations from a re-analysis of the deposited data

How the results depend on the processing

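The gate differences kept 0 genes called of 8 under every alternative run, with and without the replicate block, by limma. Of the 8 genes, the sign of some uncalled gate differences turned. Within MC38, upper-quartile scaling gave -0.020 for Rhox5, macrophage core scaling -0.070 for Rhox5 and -0.043 for Cd34, and array weights -0.039 for Rhox5. Within B16F10, Cd34 was at -0.0094 with upper-quartile scaling, -0.12 with macrophage core scaling and -0.14 with array weights, Sparc at -0.036 with macrophage core scaling, and Rhox5 at 0.10 with array weights. With each library left out in turn, the log2 differences within MC38 ran from -0.078 to 0.27 for Cd34, -0.12 to 0.32 for Rhox5, -0.25 to 0.034 for Ly6a and -0.20 to 0.49 for Col3a1. Within B16F10 they ran from -0.16 to 0.17 for Cd34, -0.15 to 0.10 for Rhox5, -0.12 to 0.64 for Htra1 and -0.14 to 0.32 for Sparc. The cause was not tested.

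The title number test called 1 gene within MC38 with a pseudocount of 5, Col3a1 (adjusted p = 0.0129 by limma), and 0 to 1 with a library left out. Within B16F10 it called 1 gene with no filter, 6 with macrophage core scaling, of which Cd34, Dcn, Rhox5 and Col3a1 lie near 0 FPKM in B16F10 and move with the scaling factor itself, and 0 to 4 with a library left out. The cause was not tested. Genes outside the 10 called between the tumours numbered 163, and 130 to 176 under the other settings.

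With the replicate block the genes called between gates rose to 52 within MC38, against 3 without it, to 160 within B16F10, against 21, and to 227 averaged over both, against 53. It changed no call among the 8 genes. Levels under about 1 FPKM in B16F10, where a read was worth 2.97 to 3.56 times that of the deepest library, are poorly resolved.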

Other observations

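T cell markers summed to 1.82 to 11.3 FPKM in MC38 and 2.36 to 8.38 FPKM in B16F10 libraries. Of 4 tested by limma, 1 gene was higher and 1 lower in MC38. Of these 4, 2 passed the filter through MC38 alone and 1 through B16F10 alone. The 1 NK cell gene tested was higher, having passed the filter through MC38 alone. Of 2 B cell genes 1 was higher and 1 lower, and Cd79a passed the filter through B16F10 alone. Cd79b was at 22.6 ± 6.10 FPKM in MC38 and 7.42 ± 5.42 FPKM in B16F10 (SD, n = 6 each). Of 6 neutrophil genes 1 was higher and 5 were lower, and 2 of the 6 passed the filter through B16F10 alone. The neutrophil sum was 40.9 to 50.1 FPKM in MC38 libraries. It was 366 and 841 FPKM in the RFP+ and RFP- libraries of B16F10 number 3, and 32.9 to 126 FPKM in the other B16F10 libraries. S100a8 was at 2.58 ± 2.40 FPKM in MC38 and 129 ± 183 FPKM in B16F10 (SD, n = 6 each), a spread in B16F10 wider than its mean. Of 7 dendritic cell genes 4 were higher and 1 lower, and 2 of the 7, Clec9a and Xcr1, passed the filter through MC38 alone. All of the calls higher were lost on the macrophage core scale, where 0 were higher and 6 lower. The 1 mast cell gene tested, Kit, was lower, a call lost with the title number as a block.

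The platelet factor Pf4, the 1 platelet gene tested, was at 229 ± 127 FPKM in MC38 and 1054 ± 690 FPKM in B16F10 (SD, n = 6 each), a difference of -2.10 ± 0.26 (SE). It was also higher in RFP+ than in RFP- libraries, by 1.53 over both tumours, and that call held with the title number as a block.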
